A study of Danio rerio with 2 samples.

Results

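The genes described here are 10 that write, erase or read N6-methyladenosine (m6A) on RNA, followed through spermatogenesis in the adult zebrafish testis. They were chosen by symbol, as 3 writers (mettl3, mettl14 and wtap), 2 erasers (alkbh5 and fto), 3 readers of the YTHDF type (ythdf1, ythdf2 and ythdf3) and 2 of the YTHDC type (ythdc1 and ythdc2). Each symbol matched exactly 1 of the 32520 Ensembl identifiers in the files, and all 10 passed the filter on low counts, with 409 UMIs on fto as the fewest and 5293 on ythdf2 as the most. A UMI (unique molecular identifier) tags 1 captured transcript at its 3′ end, so that levels of different genes were compared without scaling by gene length. The study made single-cell RNA-seq libraries from testes of adult males in 2 biological replicates. No treatment or mutation separates the samples, and the groups compared are the 7 germ cell populations of the testis. The labels call the fish wild type in one protocol and transgenic in another, name no transgene and give an age of 6 months, and the methods give the strain as AB/Tübingen. All stages of a replicate came from the same library.

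In the order of differentiation, the spermatogonia were divided into an undifferentiated A type, named SPG-Aun, a differentiated A type, named SPG-Ad, and a B type, named SPG-B. Spermatocytes were either primary, SPC-I, or secondary, SPC-II, and spermatids either round, SPT-r, or elongated, SPT-e. Replicate 1 carried the study's own stage labels for 1999 cells. In replicate 2, 4001 cells took the label of the most similar labelled cells, in a space built without the 10 genes. When labels in replicate 1 were hidden, 88.4% were recovered, but only 56.2% of the SPG-B labels, with 57 of 178 SPG-B cells called SPG-Aun and 19 called SPC-I. SPG-B values are therefore the least certain, while SPG-Ad labels were recovered at 77.1%. All cells of this check came from replicate 1, so it does not measure errors in carrying labels over to replicate 2. In replicate 2, 224 of 885 SPG-Aun, 191 of 463 SPG-Ad and 41 of 210 SPG-B cells had 80% of the votes of their nearest labelled cells. The spermatogonial stages of replicate 2 were thus told apart less surely, against 758 of 879 cells in SPC-I. Since the study named the stages by clustering the same expression data, a difference between stages is not independent of how the stages were told apart. The libraries shared 8 barcodes, of which 5 passed the cell filters in both. For each stage and replicate the UMIs of all cells were added up, and the 14 sums held 693732 to 11331042 UMIs from 135 to 885 cells. Cells of SPT-e were shallow, with a median of 1374 UMIs in replicate 1 and 1338 in replicate 2, against medians of 5884 to 13208 UMIs in the other sums. The stage labels were set beside marker genes that the study itself had used to name the stages. Their levels are therefore no independent check of the labels. The germline helicase gene ddx4 was highest in SPG-Ad with a mean of 2604 counts per 1000000 UMIs (CPM), sycp3 of the synaptonemal complex was highest in SPC-I with 4242 CPM, and edrf1 was highest in SPT-e with 1001 CPM.

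m6A is a methyl mark on adenosines inside messenger RNA. In vertebrate cells it is placed in the nucleus by a complex in which METTL3 is the catalytic subunit, METTL14 its RNA-binding partner without catalytic activity of its own, and WTAP the adaptor that holds the pair. FTO and ALKBH5 can remove methyl groups from RNA, while proteins with a YTH domain bind the mark, YTHDC1 in the nucleus, and the YTHDF proteins in the cytoplasm, where they have been linked to decay and translation of the marked messages. The pathway is known for its part in the germline. In mice the loss of Alkbh5 disturbs spermatogenesis, and the helicase YTHDC2 is needed to enter and complete meiosis.

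Summed over the 10 genes, CPM was highest in spermatogonia A. Most of that sum lay on ythdf2 and wtap, with means of 178 and 131 CPM in SPG-Aun. By contrast, mettl14 and ythdc2 had their highest mean CPM in spermatids. So did ythdc1, but its stage means lay only between 41.2 and 50.8 CPM and did not differ at the threshold used below. The 10 genes together held 519 ± 34.3 CPM in SPG-Aun and 527 ± 16.3 CPM in SPG-Ad, then 352 ± 18.5 CPM in SPG-B, 276 ± 22.0 CPM in SPC-I, 171 ± 3.90 CPM in SPC-II, 244 ± 15.4 CPM in SPT-r and 252 ± 15.8 CPM in SPT-e (SD, n = 2 replicates). A CPM is here a share of the UMIs of a stage, scaled by the trimmed mean of M-values (TMM). Counted instead as UMIs per 100 cells, the sum was 598 ± 44.5 UMIs in SPG-Aun, 745 ± 80.8 UMIs in SPG-Ad and 332 ± 21.0 UMIs in SPG-B. Spermatocytes held 207 ± 22.9 such UMIs when primary and 174 ± 0.581 when secondary, and spermatids held 199.7 ± 28.3 when round and 32.5 ± 0.159 when elongated. The summed CPM of SPT-e was thus close to that of SPT-r, whereas per cell it was the lowest of all stages. The composition changed with the level. Writers and YTHDF readers made up most of the sum in spermatogonia A, whereas from SPC-I on the YTHDC readers held more CPM than the YTHDF readers in both replicates.

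**Figure D1:**
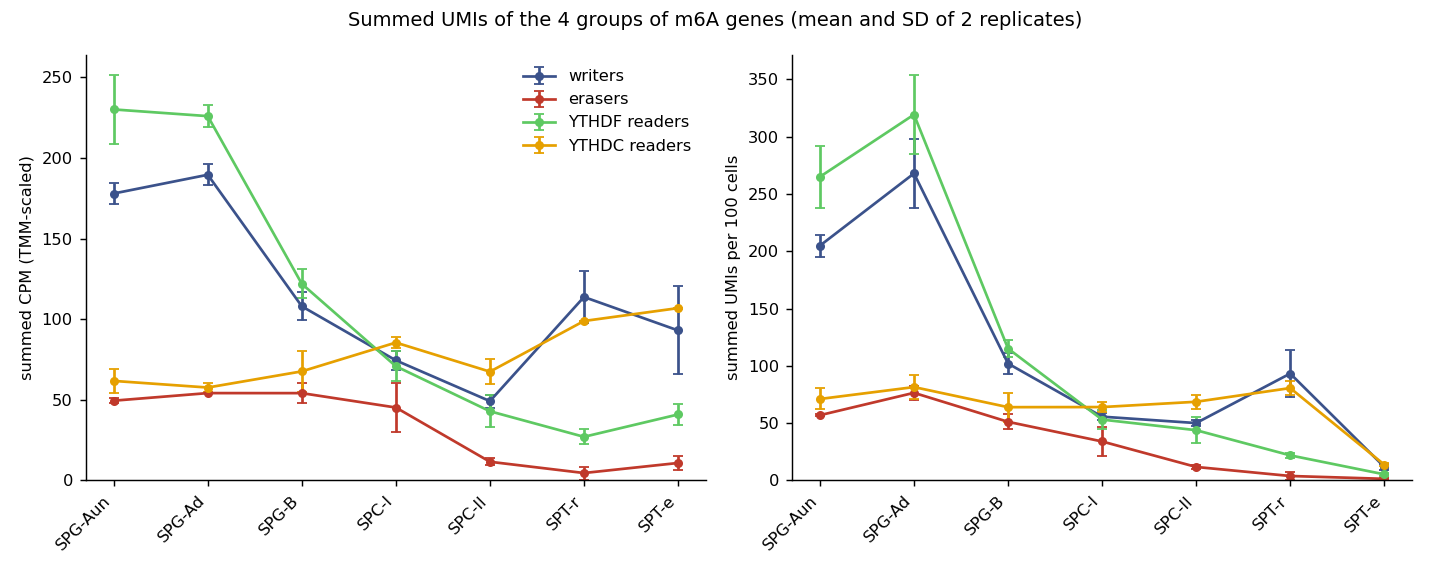
Summed UMIs of the 3 writers, 2 erasers, 3 YTHDF readers and 2 YTHDC readers by stage, as CPM (left panel) and as UMIs per 100 cells (right panel), with points at the mean and bars for the SD of 2 replicates. YTHDF readers held 27.1 CPM in SPT-r, against 230 CPM in SPG-Aun, while YTHDC readers held 98.9 CPM in SPT-r, against 61.7 CPM in SPG-Aun. Per 100 cells all groups were lowest in SPT-e.

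Over the 7 stages, 8 of the 10 genes differed at an adjusted p under 0.05 in the quasi-likelihood F test of edgeR, the exceptions being ythdf3 (adjusted p = 0.294) and ythdc1 (adjusted p = 0.719). This was not more than among other genes, since 89.9% of the 13951 genes tested passed the same threshold. No member passed it between SPG-Ad and SPG-Aun, where 1.20% of all genes did and where the 10 fold changes lay between a fall by 0.23 and a rise of 0.22 on the log2 scale. Neither edgeR nor DESeq2 gave any member an unadjusted p under 0.05 there.

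Spermatocytes (the mean of SPC-I and SPC-II) were then compared with spermatogonia (the mean of SPG-Aun, SPG-Ad and SPG-B). In spermatocytes, wtap, mettl3, alkbh5, fto, ythdf1 and ythdf2 fell and ythdc2 rose, while mettl14, ythdf3 and ythdc1 did not pass the threshold. Among all genes 70.9% were called in this comparison (34.3% higher and 36.7% lower), so that 7 of 10 is near the background in number. The median log2 fold change of the 10 was -1.01, and that over all genes tested -0.07. All 7 calls held in each of the 11 or 12 alternatives that tested them. In spermatids (the mean of SPT-r and SPT-e) over spermatocytes, 6 of the 10 were called, with mettl14 and ythdc2 higher and mettl3, alkbh5, fto and ythdf2 lower. Here 56.8% of all genes were called, 25.6% higher and 31.2% lower, and the median was -0.39 for the members and -0.26 for all genes. ythdf1 was called as well once SPT-e was left out (log2 fold change -1.79, adjusted p = 0.00298), where the comparison with it gave -0.59 ± 0.34 (adjusted p = 0.178).

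Between neighbouring stages the counts of members called can be read against the same background. In SPG-B over SPG-Ad, 3 of 10 fell and none rose, where 20.4% of all genes were called (6.07% higher and 14.3% lower). In SPC-I over SPG-B, 1 rose and 3 fell (35.5% of all genes, 20.8% higher and 14.7% lower). In SPC-II over SPC-I, 4 fell and none rose (32.8% of all genes, 16.4% in either direction). In SPT-r over SPC-II, 3 rose and 4 fell (33.4% of all genes, 18.7% higher and 14.6% lower), and in SPT-e over SPT-r, 3 rose and none fell (28.8% of all genes, 14.7% higher and 14.1% lower).

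**Figure D2:**
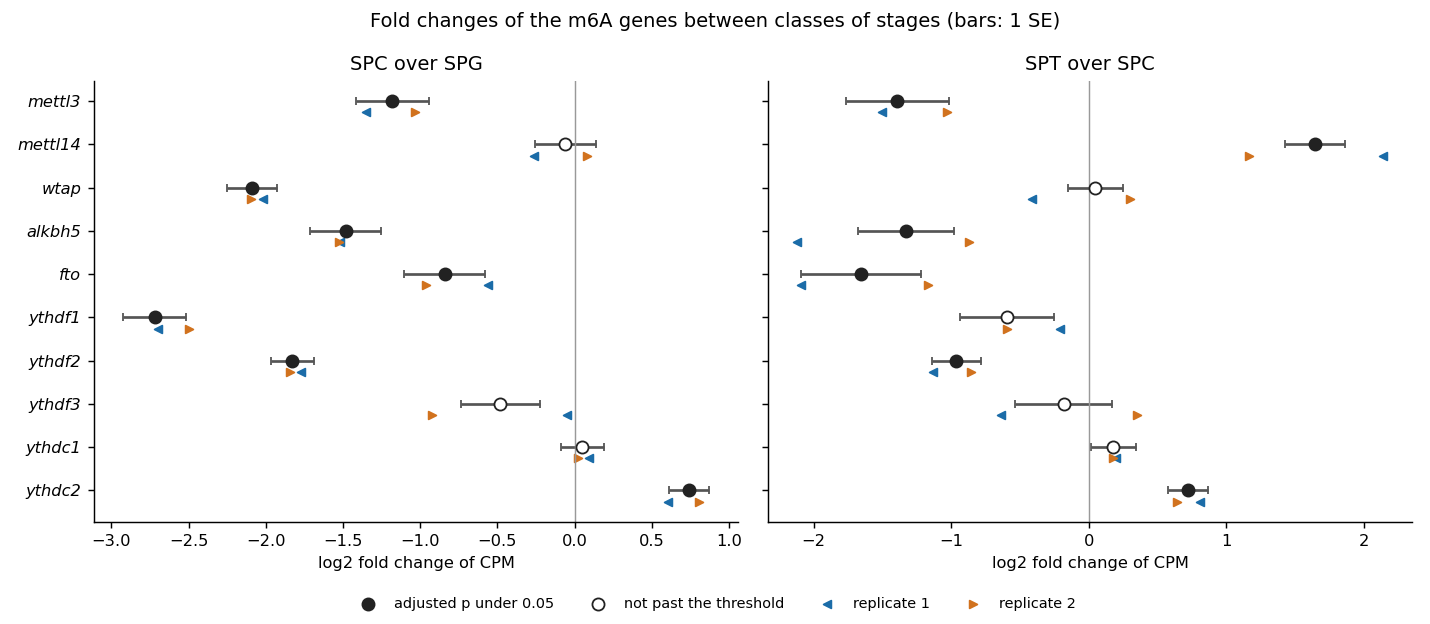
log2 fold changes of CPM of the 10 genes between classes of stages, with the edgeR estimate and 1 standard error (circles, filled where the adjusted p is under 0.05) and the change within each replicate (triangles, no test). In SPC over SPG ythdf1 lies furthest left at -2.72 and ythdc2 at 0.74, and in SPT over SPC mettl14 lies furthest right at 1.65 and fto furthest left at -1.66.

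Among the writers, the subunits of the catalytic pair went opposite ways in CPM between spermatids and spermatocytes, mettl3 lower and mettl14 higher. mettl3, the methyltransferase itself, had 19.9 and 19.4 CPM in SPG-Aun, 22.5 and 16.5 CPM in SPG-Ad, 15.0 and 13.0 CPM in SPG-B, 16.4 and 10.4 CPM in SPC-I, 2.85 and 5.49 CPM in SPC-II, 0.585 and 1.80 CPM in SPT-r and 5.71 and 6.14 CPM in SPT-e, in replicates 1 and 2. It was low from SPC-II on, where no replicate reached the level of any earlier stage. mettl3 was 2.91-fold lower in SPC-II than in SPC-I (log2 fold change -1.54 ± 0.40, SE, adjusted p = 0.0075, edgeR) and fell again in SPT-r, to 1 and 7 UMIs, against 4 and 15 UMIs in SPC-II (log2 fold change -1.65 ± 0.58, adjusted p = 0.0377). That second call rested on these few UMIs and was lost in 7 of 10 alternatives. The first was lost with cell number as the scale (log2 fold change -1.11, adjusted p = 0.0509).

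mettl14, the partner of METTL3 in the complex, had 26.3 and 28.0 CPM in SPG-Aun, 30.8 and 27.0 CPM in SPG-Ad, 13.8 and 18.02 CPM in SPG-B, 13.7 and 19.6 CPM in SPC-I and 24.97 and 32.6 CPM in SPC-II. It then stood at 81.9 and 89.4 CPM in SPT-r and at 85.7 and 36.9 CPM in SPT-e. SPT-r was above every earlier stage in both replicates, while the SPT-e replicates lay far apart. In SPT-r mettl14 was 2.93-fold higher than in SPC-II (log2 fold change 1.55 ± 0.29, adjusted p = 8.0e-04), a call kept in all 10 alternatives that tested it. Over both spermatid stages it was 3.13-fold higher than in spermatocytes (log2 fold change 1.65 ± 0.22, adjusted p = 1.2e-05), with 2.14 in replicate 1 and 1.17 in replicate 2, but with cell number as the scale this change was 0.23 (adjusted p = 0.321). In SPT-r it was also higher when counted per cell, with 63.1 and 76.9 UMIs per 100 SPT-r cells, against 25.9 and 32.6 UMIs per 100 SPC-II cells. With the replicate as a block, the drop of mettl14 in SPG-B, against SPG-Ad, and its rise in SPC-II, against SPC-I, passed the threshold as well (adjusted p = 0.0349 and 0.0266), where the fit without the block had given 0.0762 and 0.0611.

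The same UMIs can be read as a share within each sum, which does not depend on the scaling between stages. Of the UMIs on mettl3 and mettl14 together, those on mettl14 made up 57.0% (49.0 to 64.6%) and 59.0% (54.5 to 63.5%) in SPG-Aun, and 45.5% (35.6 to 55.8%) and 65.3% (58.1 to 72.0%) in SPC-I, with exact Clopper-Pearson intervals at 95% that cover counting error only. In SPC-II the share was 89.7% (75.8 to 97.1%) and 85.6% (77.3 to 91.7%). In SPT-r it was 99.3%, or 140 of 141 UMIs (96.1 to 99.98%), and 98.0%, or 347 of 354 UMIs (96.0 to 99.2%), and in SPT-e it was 93.8% and 85.7% of 48 and 49 UMIs. The intervals of SPC-II and SPT-r lay above those of every stage up to SPC-I in both replicates. Within the same SPT-r cells 46.4% and 49.0% had a UMI on mettl14 and 0.450% and 1.55% one on mettl3. Such shares may include free RNA, which was not tested. For comparison, insl3, a hormone gene of Leydig cells, gave a UMI in 44.6% and 53.2% of these germ cells, at median depths of 7998 and 8702 UMIs. Thinned to 500 UMIs per cell, the shares in SPT-r were 2.70% and 2.00% for mettl14 and 0.450% and 0.222% for mettl3. Those of mettl14 rested on 6 and 9 cells. In thinned SPC-II cells its shares were 2.22% and 2.20%, from 3 and 6 cells, so that at this depth no rise of mettl14 in SPT-r was seen.

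**Figure D3:**
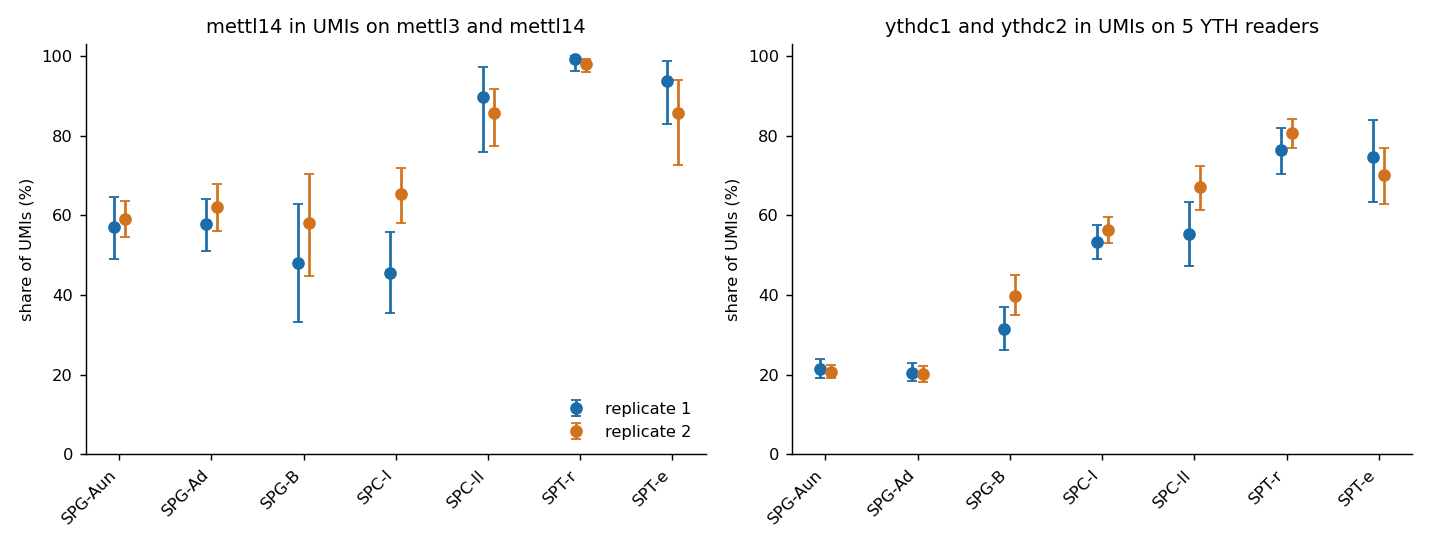
Shares of UMIs within each sum, by stage and replicate, with bars for exact 95% binomial intervals. Left, mettl14 among UMIs on mettl3 and mettl14, which is 99.3% and 98.0% in SPT-r, against 45.5% to 65.3% in the stages up to SPC-I. Right, ythdc1 and ythdc2 among UMIs on the 5 YTH readers, at 76.5% and 80.7% in SPT-r, against 21.5% and 20.8% in SPG-Aun.

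wtap, the adaptor, was the most abundant writer in spermatogonia, with 137 and 126 CPM in SPG-Aun and 141 and 141 CPM in SPG-Ad. It stood at 73.1 and 83.1 CPM in SPG-B, 40.0 and 48.8 CPM in SPC-I, 18.6 and 13.9 CPM in SPC-II, 19.9 and 34.0 CPM in SPT-r and 21.0 and 30.7 CPM in SPT-e. From SPG-B to SPC-II each stage lay below the one before in both replicates. wtap was 1.80-fold lower in SPG-B than in SPG-Ad (adjusted p = 0.0125), 1.75-fold lower in SPC-I than in SPG-B (adjusted p = 0.0114) and 2.82-fold lower in SPC-II than in SPC-I (adjusted p = 4.9e-04). The call in SPC-I over SPG-B was lost when replicate 2 kept only cells whose stage had at least 80% of the votes of their nearest labelled cells, and when each cell was thinned to 500 UMIs (adjusted p up to 0.281), and that in SPG-B over SPG-Ad with thinned cells (adjusted p = 0.299). A rise in SPT-r, against SPC-II (log2 fold change 0.82 ± 0.28, adjusted p = 0.0319), was carried by replicate 2, where the change was 1.25, and replicate 1 alone gave 0.10. The call was lost in 3 of 11 alternatives, among them cell number as the scale (adjusted p = 0.185), with adjusted p of up to 0.884.

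Both erasers were highest in early stages and low in spermatids. alkbh5 had 37.3 and 38.2 CPM in SPG-Aun, 43.5 and 44.7 CPM in SPG-Ad, 41.4 and 44.5 CPM in SPG-B and 49.2 and 29.1 CPM in SPC-I. It then dropped to 3.57 and 6.96 CPM in SPC-II, 1.17 and 4.64 CPM in SPT-r and 5.71 and 12.3 CPM in SPT-e. The 4 stages up to SPC-I overlapped each other in level order, and all replicates of the 3 later stages lay below all of theirs. alkbh5 was 6.75-fold lower in SPC-II than in SPC-I (log2 fold change -2.75 ± 0.39, adjusted p = 7.7e-05), the largest step in CPM of any of the 10 genes between neighbouring stages, and this call held in all 10 alternatives that tested it. Within replicate 1 the change was -3.59 and within replicate 2 it was -1.98. The fall of alkbh5 between the means of spermatocytes and spermatogonia (log2 fold change -1.48 ± 0.23, adjusted p = 3.5e-05) therefore averaged unlike stages, and between SPC-I and SPG-B the change did not pass the threshold (log2 fold change -0.16 ± 0.30, adjusted p = 0.712).

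fto held 11.2 and 12.2 CPM in SPG-Aun, 10.8 and 9.39 CPM in SPG-Ad, 8.39 and 14.01 CPM in SPG-B, 6.86 and 5.28 CPM in SPC-I, 6.42 and 6.22 CPM in SPC-II, 0.585 and 2.83 CPM in SPT-r and 1.90 and 1.76 CPM in SPT-e. The replicate values formed 3 tiers, spermatogonia above spermatocytes above spermatids, with overlap inside each tier and none between them. Counting limits did overlap, since those of SPG-B in replicate 1 (4.59 to 14.1 CPM) took in the spermatocyte values. fto was 1.79-fold lower in spermatocytes than in spermatogonia (log2 fold change -0.84 ± 0.26, adjusted p = 0.00924) and 3.15-fold lower in spermatids than in spermatocytes (log2 fold change -1.66 ± 0.44, adjusted p = 0.00447). With the replicate block its fall in SPC-I, against SPG-B, passed as well (adjusted p = 0.0474, and 0.086 without the block). The spermatid sums held 1 and 11 UMIs in SPT-r and 1 and 2 UMIs in SPT-e, so that the level there is known only within wide counting limits, 0.0148 to 3.26 CPM for SPT-r of replicate 1. Of the UMIs on both erasers, alkbh5 held 87.8% and 84.6% in SPC-I, against 83.1% and 76.1% in SPG-B, and 35.7% and 52.8% of only 14 and 36 UMIs in SPC-II.

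**Figure D4:**
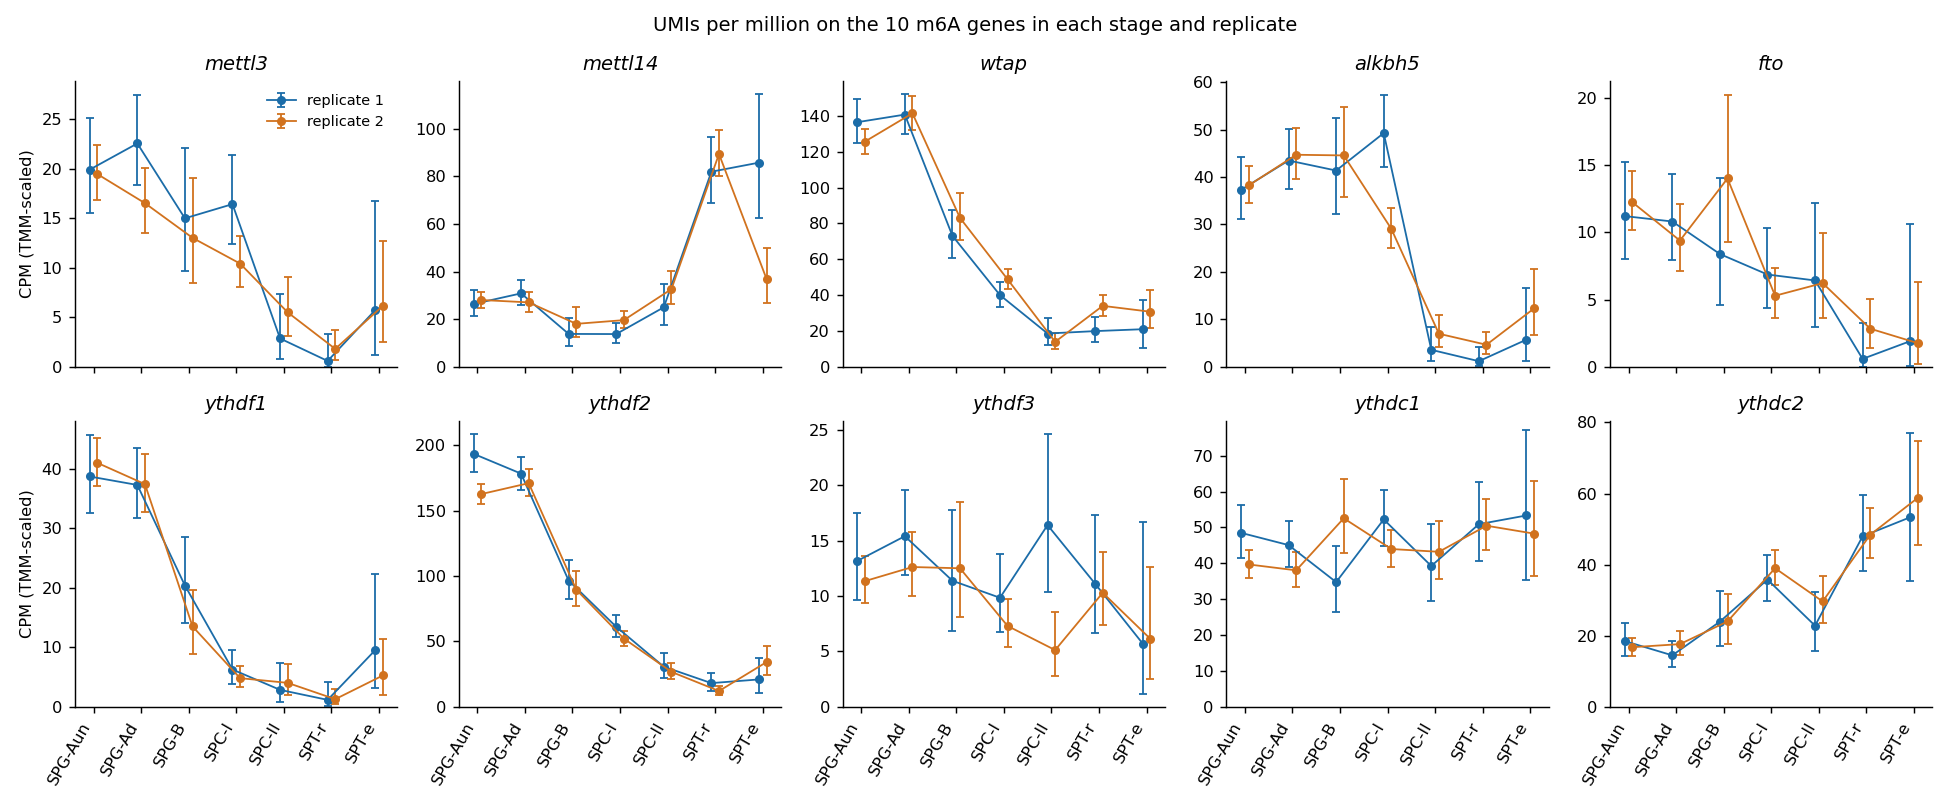
CPM of each of the 10 genes (linear axes from 0, a scale of its own in each panel) across the 7 stages, in replicate 1 (blue) and replicate 2 (orange), with bars for exact Poisson 95% limits of the UMI count. wtap, ythdf1 and ythdf2 step down between SPG-Ad and SPC-II, alkbh5 is low in SPC-II (3.57 and 6.96 CPM), against SPC-I (49.2 and 29.1 CPM), mettl14 and ythdc2 are high in spermatids, and ythdc1 stays between 34.8 and 53.3 CPM.

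Of the YTHDF readers, ythdf1 and ythdf2 were both highest in spermatogonia A and lower in spermatocytes. ythdf2, which in zebrafish embryos helps to clear maternal messages, had 193 and 163 CPM in SPG-Aun, 178 and 171 CPM in SPG-Ad, 96.5 and 89.6 CPM in SPG-B, 61.2 and 52.2 CPM in SPC-I, 30.7 and 26.7 CPM in SPC-II, 18.1 and 12.1 CPM in SPT-r and 21.0 and 34.2 CPM in SPT-e. From SPG-Ad to SPT-r each stage lay below the one before in both replicates, and each of these 4 steps passed the threshold, with log2 fold changes of -0.91 ± 0.20 in SPG-B over SPG-Ad, -0.72 ± 0.20 in SPC-I over SPG-B, -0.99 ± 0.22 in SPC-II over SPC-I and -0.97 ± 0.26 in SPT-r over SPC-II and adjusted p between 0.00313 and 0.0128. None of these 4 calls held in every alternative. SPC-II over SPC-I was lost with cell number as the scale (adjusted p = 0.0758) and with thinned cells (adjusted p = 0.436). SPC-I over SPG-B was lost with 80% of the votes and with thinned cells (adjusted p up to 0.132). SPG-B over SPG-Ad was lost with thinned cells (adjusted p = 0.202), and SPT-r over SPC-II with thinned cells, with stages predicted in both replicates and without called doublets (adjusted p up to 0.250).

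ythdf1, its paralogue, had 38.7 and 41.0 CPM in SPG-Aun, 37.3 and 37.4 CPM in SPG-Ad, 20.4 and 13.5 CPM in SPG-B, 6.27 and 4.82 CPM in SPC-I, 2.85 and 4.03 CPM in SPC-II, 1.17 and 1.29 CPM in SPT-r and 9.52 and 5.27 CPM in SPT-e. In SPC-I it was 3.09-fold lower than in SPG-B (log2 fold change -1.63 ± 0.30, adjusted p = 6.1e-04), in all 10 alternatives that tested it. In SPC-II over SPC-I the change did not pass the threshold (log2 fold change -0.58 ± 0.38, adjusted p = 0.305). In spermatocytes as a whole it was 6.58-fold lower than in spermatogonia (log2 fold change -2.72 ± 0.20, adjusted p = 1.3e-08), the largest change of the 10 genes in that comparison. The further drop in SPT-r, against SPC-II, rested on 2 and 5 UMIs, against 4 and 11 UMIs. Its adjusted p was 0.0464 without the replicate block and 0.0506 with it. That call was lost in 8 of 10 alternatives, with adjusted p of up to 0.588.

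For ythdf3 no such decline in CPM passed the threshold in the fit without the block. It ranged from 5.13 CPM in SPC-II of replicate 2 to 16.4 CPM in SPC-II of replicate 1, so that 1 stage held both the lowest and the highest of its 14 values. No comparison of that fit called it, with log2 fold changes between -0.82 ± 0.56 in SPT-e over SPT-r and 0.21 ± 0.42 in SPC-II over SPC-I. With cell number as the scale ythdf3 fell in spermatocytes over spermatogonia (log2 fold change -0.88, adjusted p = 0.00818). On that scale it also fell in spermatids over spermatocytes (-1.57, adjusted p = 7.5e-04). With the block, its fall in spermatocytes against spermatogonia passed (log2 fold change -0.51, adjusted p = 0.0409), where the fit without it gave 0.108. Among the UMIs on the 3 YTHDF genes, ythdf3 therefore took a share of 5.33 ± 0.0629% in SPG-Aun, 12.05 ± 0.982% in SPC-I and 40.0 ± 4.91% in SPT-r, and ythdf2 one of 77.3 ± 2.26%, 80.2 ± 1.42% and 55.4 ± 6.03% (SD, n = 2). The share of ythdf3 was 23.6 ± 13.1% in SPC-II and only 14.6 ± 1.65% in SPT-e. That of ythdf2 was 68.0 ± 9.24% in SPC-II and 66.4 ± 12.1% in SPT-e.

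Neither YTHDC reader was called lower in CPM in spermatocytes over spermatogonia or in spermatids over spermatocytes. ythdc1, the nuclear reader, had its lowest value of 34.8 CPM in SPG-B of replicate 1 and its highest of 53.3 CPM in SPT-e of replicate 1, and all 6 pairs of neighbours in the order of its stage means overlapped between replicates. Its largest change between neighbouring stages was 0.29 ± 0.22 on the log2 scale, in SPT-r over SPC-II (adjusted p = 0.342). A level in CPM is not an amount per cell, and ythdc1 gave 6.57 and 6.55 UMIs per 100 SPT-e cells, against 39.2 and 43.5 UMIs per 100 SPT-r cells.

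ythdc2, the meiotic helicase, was the reader that rose. It had 18.5 and 16.8 CPM in SPG-Aun, 14.5 and 17.6 CPM in SPG-Ad, 24.0 and 24.0 CPM in SPG-B, 35.8 and 39.0 CPM in SPC-I, 22.8 and 29.7 CPM in SPC-II, 48.0 and 48.4 CPM in SPT-r and 53.3 and 58.8 CPM in SPT-e. The order of its stages placed spermatids above SPC-I and SPC-I above SPC-II, without overlap, and SPC-II overlapped with SPG-B. The drop in SPC-II, against SPC-I, did not pass the threshold (log2 fold change -0.49 ± 0.20, adjusted p = 0.0747, edgeR). ythdc2 was 1.67-fold higher in spermatocytes than in spermatogonia (log2 fold change 0.74 ± 0.13, adjusted p = 1.2e-04), and with cell number as the scale the change was 0.34 (adjusted p = 0.0333). It was 1.65-fold higher in spermatids than in spermatocytes (log2 fold change 0.72 ± 0.15, adjusted p = 5.8e-04), but on the scale per cell it was lower (log2 fold change -0.69, adjusted p = 5.3e-04), at 6.57 and 7.98 UMIs per 100 cells in SPT-e. The median of all genes moved by -1.38 between these scales. The call of ythdc2 in spermatids over spermatocytes was also lost with cells thinned to 500 UMIs (adjusted p = 0.384). Without SPT-e, round spermatids alone were above spermatocytes (log2 fold change 0.61, adjusted p = 0.00594). The step between SPG-B and SPC-I passed the threshold (log2 fold change 0.64 ± 0.20, adjusted p = 0.0236) and was lost in 9 of 11 alternatives, with adjusted p of up to 0.575.

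Set against each other within the 5 YTH readers, the YTHDC pair took 21.5% (19.1 to 24.0%) and 20.8% (19.3 to 22.4%) of the UMIs in SPG-Aun, 31.4% and 39.8% in SPG-B, 53.2% (49.0 to 57.5%) and 56.3% (53.1 to 59.5%) in SPC-I, then 55.4% and 67.0% in SPC-II, and then 76.5% (70.3 to 81.9%) and 80.7% (76.8 to 84.1%) in SPT-r. In SPT-e it was 74.7% and 70.1%. Within the pair, ythdc2 held 28.7 ± 1.49% of the UMIs in SPG-Aun, 43.8 ± 4.47% in SPC-I and 52.5 ± 3.48% in SPT-e.

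In elongated spermatids 3 of the 10 genes were called higher than in round spermatids, where 14.7% of all genes were called higher. These were mettl3 (log2 fold change 2.07 ± 0.67, adjusted p = 0.0302), ythdf1 (2.39 ± 0.58, adjusted p = 0.00645) and ythdf2 (1.01 ± 0.29, adjusted p = 0.0174), all of them genes of spermatogonia. The counts were small, with 3 and 7 UMIs on mettl3 and 5 and 6 UMIs on ythdf1 in SPT-e, and 11 and 39 UMIs on ythdf2. None of these calls held once cells called doublets were left out, which took 14 and 30 cells from SPT-e and changed the estimates to 0.63 for mettl3, 1.98 for ythdf1 and 0.41 for ythdf2 (adjusted p = 0.748, 0.134 and 0.451). They were also lost when replicate 2 kept only cells with at least 80% of the votes. With cell number as the scale all 3 changes were negative, and that of ythdf2 passed the threshold as a fall (log2 fold change -1.62, adjusted p = 1.1e-04), where the median of all genes moved by -2.61. Of other members highest in spermatogonia, wtap, fto and ythdf3 had estimates of -0.05, -0.18 and -0.82, and alkbh5 one of 1.53, none called. Summed markers of spermatogonia and of Leydig cells were higher in SPT-e in CPM. The summed level of the 5 spermatogonial markers, none of them at 0, was 943 and 1341 CPM in SPT-e, against 472 and 575 CPM in SPT-r, and that of 5 Leydig markers was 116 and 286 CPM in SPT-e, against 80.2 and 117 CPM in SPT-r, with 2 of the 5 at 0 in SPT-e of replicate 1 and 1 at 0 in SPT-r of replicate 2. From SPT-r to SPT-e, summed Sertoli markers fell in replicate 1 (5.27 to 3.81 CPM) and rose in replicate 2 (9.01 to 16.7 CPM). Summed immune markers rose in replicate 1 (56.2 to 101 CPM) and fell in replicate 2 (34.0 to 29.8 CPM). The part of such RNA in the 3 changes was not tested.

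Across the 14 sums, log2 CPM of the 10 genes fell into courses that can be described by their correlations, though points of the same library or stage are not independent. Among the 45 pairs, the closest were mettl3 with alkbh5 (r = 0.96), ythdf1 with ythdf2 (r = 0.93) and wtap with ythdf2 (r = 0.91). The most opposed were fto with ythdc2 (r = -0.86) and ythdf2 with ythdc2 (r = -0.85), and mettl3 with mettl14 gave r = -0.71. Among all genes tested, courses most like those of the members included those of sypl2 (r = 0.98) and btr09 (r = 0.97) for mettl3, pxk (r = 0.97) for mettl14, nars1 (r = 0.99) and clock (r = 0.98) for wtap, med13 (r = 0.99) and rpl31 (r = 0.98) for alkbh5, and dpm2 (r = 0.98) and hadh (r = 0.97) for fto. For the readers they were those of prpf4 (r = 0.99) and cybc1 (r = 0.98) for ythdf1, ubr7 (r = 0.99) and tspy (r = 0.99) for ythdf2, and cops4 (r = 0.97) and txnl4a (r = 0.96) for ythdc2. Matches were weaker for ythdf3 and ythdc1, which did not pass the F test over all stages in CPM. They were tab1 (r = 0.85) and znf1185 (r = 0.85) for ythdf3, and mpp4 (r = 0.75) and si:dkeyp-121d4.1 (r = 0.73) for ythdc1.

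The other genes of the pathway were taken from lists by symbol. Of the m6A complex partners, subunits that join the catalytic pair, 4 of the 5 listed symbols matched and were tested. In spermatocytes over spermatogonia, where 34.3% of all genes were called higher and 36.7% lower, 1 rose and 3 fell, and their median was -1.17. virma, the large scaffold of the complex, was the one that rose (log2 fold change 0.73 ± 0.13, adjusted p = 8.6e-05), with 54.3 and 58.6 CPM in SPC-I, against 33.0 and 27.5 CPM in SPG-B, and it was lower again in spermatids than in spermatocytes (-1.55 ± 0.17, adjusted p = 1.6e-06). zc3h13, which anchors the complex in the nucleus in mammals, fell (-1.76 ± 0.14, adjusted p = 2.5e-08), as did the RNA-binding recruiters rbm15b (-2.66 ± 0.46, adjusted p = 9.4e-05) and rbm15 (-0.59 ± 0.24, adjusted p = 0.0401). virma thus had its highest level in SPC-I, a stage at which wtap was below its level in all spermatogonia.

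Of the other m6A methyltransferases, which act on small nuclear, ribosomal or cap-adjacent adenosines, all 6 were tested, and 4 fell and none rose in spermatocytes over spermatogonia (70.9% of all genes called, 36.7% lower). They were mettl4 (-2.89 ± 0.64, adjusted p = 8.3e-04), the cap methyltransferase pcif1 (-1.93 ± 0.32, adjusted p = 7.6e-05), the 18S rRNA methyltransferase mettl5 (-1.06 ± 0.15, adjusted p = 1.5e-05) and its cofactor trmt112 (-0.998 ± 0.13, adjusted p = 4.0e-06). In spermatids over spermatocytes trmt112, mettl5 and mettl16 fell and none rose, where 31.2% of all genes were called lower and 25.6% higher. mettl16, a methyltransferase of U6 small nuclear RNA, fell (-0.51 ± 0.17, adjusted p = 0.0184). It stood at 43.3 and 45.8 CPM in SPT-r, against 45.7 and 42.8 CPM in SPC-II, and at 11.4 and 18.4 CPM in SPT-e.

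Methyl groups for all these enzymes come from S-adenosylmethionine (SAM). Of the 6 genes listed for SAM supply, 4 were tested, while the symbols mat2aa and mat2ab did not match. In spermatocytes over spermatogonia 3 of the 4 fell, a count to be read against the 36.7% of all genes that fell. ahcy, which removes the by-product of each methyl transfer, had 236 and 298 CPM in SPG-Aun, 290 and 314 CPM in SPG-Ad, 114 and 142 CPM in SPG-B and 12.5 and 21.3 CPM in SPC-I. It fell by 3.90 ± 0.25 on the log2 scale in spermatocytes (adjusted p = 2.2e-09), more than any of the 10 members. mat2al, a SAM synthetase gene, fell by 3.07 ± 0.29 (adjusted p = 1.8e-07) and ahcyl1 by 0.71 ± 0.30 (adjusted p = 0.045). In spermatids over spermatocytes 1 of the 4 fell, ahcyl1 (-1.47 ± 0.46, adjusted p = 0.0136), and none rose. Of all genes 31.2% were called lower there and 25.6% higher.

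Of the CCR4-NOT deadenylase, which YTHDF2 recruits to marked messages in mammalian cells, 10 of 14 listed symbols matched and were tested. Here 5 rose and none fell in spermatocytes over spermatogonia (median 0.36), where 34.3% of all genes were called higher. cnot10 had 48.6 and 55.6 CPM in SPC-I, 176 and 195 CPM in SPC-II, 642 and 551 CPM in SPT-r and 688 and 482 CPM in SPT-e, against 17.0 to 25.8 CPM in the 6 sums of spermatogonia. It rose by 2.26 ± 0.14 on the log2 scale in spermatocytes (adjusted p = 2.0e-09) and by a further 2.58 ± 0.15 in spermatids (adjusted p = 1.2e-09). cnot9 (1.11 ± 0.10, adjusted p = 5.9e-08), the catalytic subunit cnot8 (0.74 ± 0.11, adjusted p = 1.6e-05) and cnot11 (0.51 ± 0.10, adjusted p = 4.0e-04) rose in spermatocytes as well. The fifth, cnot1, and cnot11 did not pass with cell number as the scale (adjusted p = 0.437 and 0.387). In spermatids over spermatocytes 4 rose and 4 fell, where 56.8% of all genes were called, 25.6% higher and 31.2% lower. Among them were cnot2 (2.56 ± 0.15, adjusted p = 1.3e-09), the deadenylase gene cnot6b (2.20 ± 0.22, adjusted p = 7.1e-07) and cnot8 (-1.71 ± 0.13, adjusted p = 2.8e-08). With cell number as the scale cnot10, cnot2 and cnot6b were still called higher, and cnot9 turned from a rise (0.79) to a fall (-0.64).

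**Figure D5:**
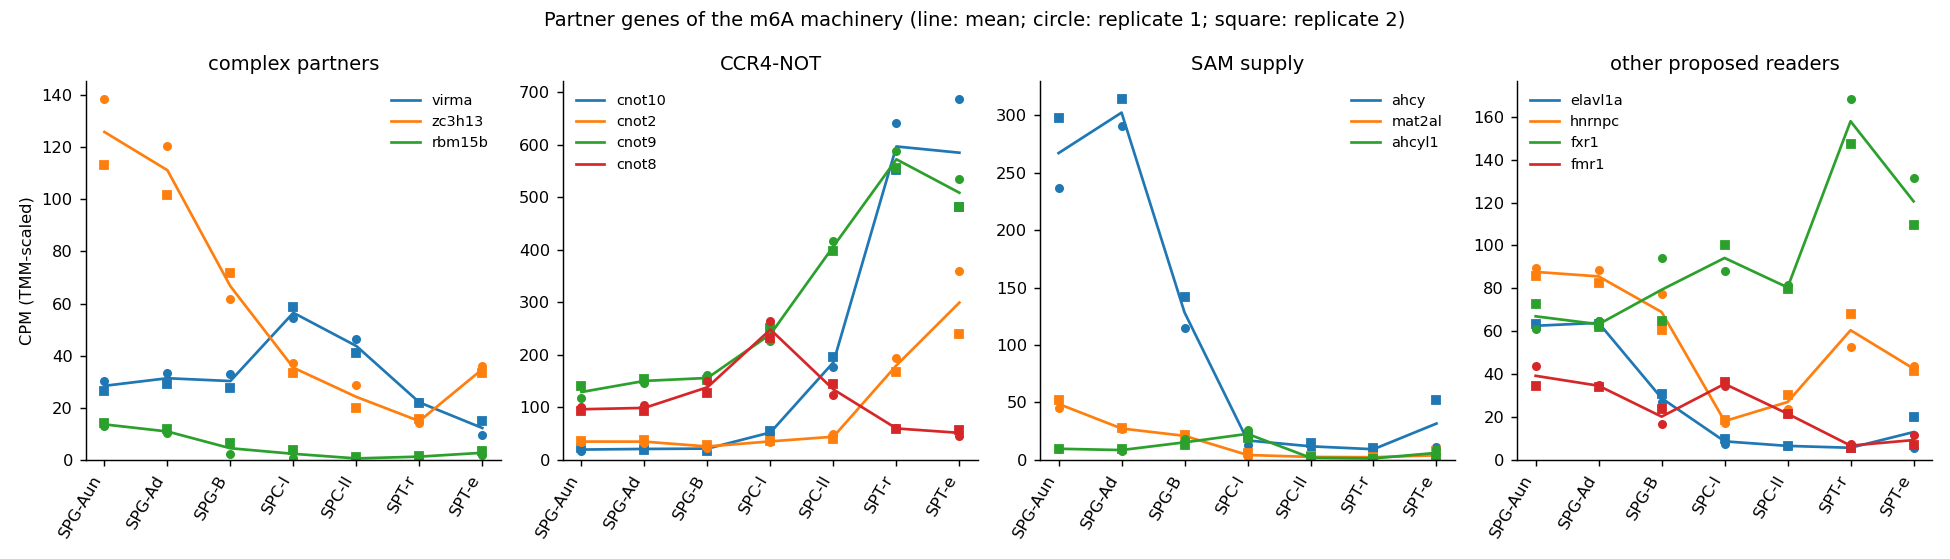
CPM of partner genes across the 7 stages, with lines at the mean of 2 replicates, circles for replicate 1 and squares for replicate 2, on linear axes of their own. zc3h13, ahcy and elavl1a are highest in spermatogonia A, virma peaks in SPC-I at 54.3 and 58.6 CPM, and cnot10 reaches 642 and 551 CPM in SPT-r.

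Among the other proposed m6A readers 10 of 13 listed symbols matched and 7 passed the filter, the 3 below it being igf2bp1, igf2bp2b and igf2bp3. In spermatocytes over spermatogonia 2 rose and 4 fell, so that 6 of 7 were called where 70.9% of all genes were. Those that fell most were elavl1a (-2.68 ± 0.19, adjusted p = 7.5e-09), hnrnpc (-1.84 ± 0.14, adjusted p = 1.3e-08) and eif3a (-0.97 ± 0.12, adjusted p = 4.5e-06), and prrc2a rose (0.77 ± 0.11, adjusted p = 2.3e-05). In spermatids over spermatocytes fxr2 (-1.92 ± 0.25, adjusted p = 8.9e-06) and fmr1 (-1.90 ± 0.22, adjusted p = 2.6e-06) fell, while their paralogue fxr1 (0.65 ± 0.14, adjusted p = 0.00102) and hnrnpc (1.19 ± 0.16, adjusted p = 1.4e-05) rose in CPM. With cell number as the scale these 2 rises became -0.77 and -0.22. Of the 3 partners of YTHDC2 listed, 2 were tested. rbm46, an RNA-binding protein that works with YTHDC2 and MEIOC in mice, had 595 and 546 CPM in SPC-I, against 328 and 301 CPM in SPG-B, and rose in spermatocytes over spermatogonia (0.87 ± 0.11, adjusted p = 2.6e-06), whereas in spermatids it was 3.999-fold lower (SE 0.13 on the log2 scale, adjusted p = 3.4e-09), unlike ythdc2. The exonuclease gene xrn1, whose product binds YTHDC2 in mammals, fell in spermatocytes over spermatogonia (-0.93 ± 0.18, adjusted p = 2.4e-04) and in spermatids over spermatocytes (-0.70 ± 0.25, adjusted p = 0.0254).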

How the data were processed

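Testes of adult zebrafish were profiled by 10x Genomics 3′ single-cell RNA-seq in 2 libraries, named replicates 1 and 2. The authors mapped reads to danRer11 and deposited raw counts of UMIs per gene and barcode, without normalization. Cell Ranger is given as version 7.2.0 in the submitters' processing notes and as 6.1.2 in the matrix headers, and the kit version differs between labels and methods. Symbols came from a reference table, for 29201 of 32520 identifiers. No positions are given, since the only annotation at hand is of another build, and sequences were not used here.

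Cells with 200 to 7000 genes and at most 5% mitochondrial UMIs were kept, which left 3018 of 3984 barcodes in replicate 1 and 5104 of 5996 in replicate 2. Passing cells held 25745204 and 38950334 UMIs. The copy of the study's annotation read here covers 1999 cells of replicate 1. Another 907 passing cells of replicate 1 lie outside it and 112 were not kept by the study. Cells of replicate 2 took the majority label of their 15 nearest labelled cells in 30 principal components of 2000 variable genes, scaled within each replicate, without the 83 genes of the lists and markers. That scaling was chosen after the data were seen, for its mixing of the replicates and the recovery of hidden labels, and scaling over both replicates was added as an alternative. With genes scaled over both, replicate 2 held 228 SPT-r cells, against 451 in the main setting, and 332 SPG-Ad cells, against 463. Clusters with under 5% of one replicate got no stage. Doublets were kept in the main setting.

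Sums per stage and replicate were tested in 1 fit of all 14 sums with edgeR 4.0.16 (filterByExpr, TMM, quasi-likelihood) on 13951 genes, with Benjamini-Hochberg adjustment over all of them and a threshold of 0.05. Cells are not replicates and no test used them as such. With 2 replicates per stage the p-values measure the spread between these 2 libraries. Same-numbered sums come from the same library, and deviations from the stage means correlated at 0.119 to 0.438 over the 21 pairs of stages, so a fit with the replicate as a block was run too. Alternatives were DESeq2 1.42.0 and its size factors, the number of cells as the scale, no filter, predicted labels in both replicates, labels with 80% of votes, a mitochondrial limit of 10%, Scrublet doublets left out, 500 UMIs per cell, and each replicate alone. Leaving out SPG-B or SPT-e was added after the data were seen. The fit was also run on simulated counts with known changes in SPC-I only. These were drawn without a library effect shared by stages, so they cannot show how the fit does with correlated sums. Intervals and floors cover counting error only.

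Named were all members, per list and comparison at most the 4 called genes with the largest change, the 2 genes most correlated with each member, and markers. One gene that this rule names is not reported here. A few values of list genes in single stages, and cnot1 and cnot9 beyond the 4 of their comparison, were chosen after they were seen. The members and lists were chosen with earlier results of these data known.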

Additional observations from a re-analysis of the deposited data

Results flagged for a closer look

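Sets of cells made by cluster or outside the annotation, of which most cells entered no comparison, also carried UMIs on the 10 genes, here given per 1000000 UMIs over both replicates without TMM scaling and with Poisson 95% limits. Leydig-like cells (45 cells, 86 UMIs) held 109.7 CPM of the 10 genes (87.7 to 135.5) and a non-germ cluster without a name (81 cells, 72 UMIs) held 162.0 CPM (126.8 to 204.0). The replicates differed more than these limits show. Replicates 1 and 2 gave 159.0 and 96.7 CPM in Leydig-like cells. In the unnamed cluster they gave 263.2 CPM (194.7 to 347.9) and 89.1 CPM (56.5 to 133.7). A cluster found almost only in replicate 2 and led by apoeb, gsdf and ccn2 (800 cells, median of 1468 UMIs) held 394.9 CPM (364.8 to 426.8), and another led by igfbp1 and phlda3 (152 cells) held 563.1 CPM (521.5 to 607.0). Passing cells of replicate 1 outside the annotation read here (891 cells) held 419.3 CPM (405.2 to 433.7). The 5989 cells with a stage outside the Leydig-like and unnamed clusters held 380.7 CPM (375.3 to 386.2). Each value over both replicates was above the limit that a count of 0 allows, at most 6.75 CPM, and none was tested against the staged cells.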

How the results depend on the processing

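Of the 101 alternative counts of members called, 83 stayed within 1.5 times the reported count, as did 86 of 101 counts over all genes. Cells thinned to 500 UMIs gave few calls. Over all genes there were 4835 for any difference over the 7 stages, 29 in SPG-Ad over SPG-Aun, 246 in SPG-B over SPG-Ad, 1000 in SPC-I over SPG-B, 1331 in SPC-II over SPC-I, 1078 in SPT-r over SPC-II, 1587 in SPT-e over SPT-r, 3317 in spermatocytes over spermatogonia and 3015 in spermatids over spermatocytes. Of the members, 3 were then called over the 7 stages, 3 in spermatocytes over spermatogonia, 1 each in SPC-II over SPC-I, SPT-e over SPT-r and spermatids over spermatocytes, and 0 in SPG-B over SPG-Ad, SPC-I over SPG-B and SPT-r over SPC-II, where ythdc2 gave -0.49. Only 4 of the 10 passed the filter on low counts there, and at an unadjusted p under 0.05 edgeR gave 1, 1 and 0 in these 3 comparisons. The member called with thinned cells in SPT-e over SPT-r was none of the 3 called in the main fit. Of those, ythdf2 was lost, and mettl3 and ythdf1 were not tested with thinned cells.

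In SPG-Ad over SPG-Aun, where 167 genes had been called, 286 were called with cell number as the scale, 322 with the replicate block, 297 with 80% of votes and 98 with genes scaled over both replicates, and no member in any of them. With cell number as the scale 6103 genes and 5 members were called in SPG-B over SPG-Ad and 11473 genes and 7 members in SPT-e over SPT-r, where mettl3, ythdf1 and ythdf2 turned to -0.55, -0.23 and -1.62, and ythdc2 turned to -0.69 in spermatids over spermatocytes. In SPT-r over SPC-II, 4 members were called without the filter, 4 with predicted labels, 3 without doublets and 3 with genes scaled over both replicates. In SPT-e over SPT-r, 0 were called with 80% of votes (3 at an unadjusted p under 0.05, edgeR), 0 without doublets (2 unadjusted) and 1 with genes scaled over both replicates, and in SPC-I over SPG-B 1 with 80% of votes. The causes were not tested. Of the 80 fold changes of members, the replicate block made 4 pass and 1 miss the threshold, and changed no other call. Without replicate 1 or 2, which leaves no test, 72 and 70 of 80 moved by less than the spread.

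DESeq2 size factors shifted the median of all genes by 0.23 in SPT-e over SPT-r, 0.22 in spermatids over spermatocytes and 0.17 in SPG-B over SPG-Ad. With them 67.6%, 55.1% and 46.4% of the genes called were higher, where TMM gave 51.0%, 45.1% and 29.7%. With cell number as the scale the share of higher genes moved by more than 10 percentage points in all 8 comparisons. SPT-e had the fewest UMIs, and members with under 10 UMIs there and in SPT-r limit those values.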
